A study of Mus musculus with 10 samples.

Results

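The 9 genes described here encode the enzymes and transporters by which a neuron makes, packages or takes up its transmitter, and they were picked out by symbol from the 24500 genes that the count tables list. Slc32a1, Gad1, Gad2 and Slc6a5 serve GABA and glycine, Slc17a6, Slc17a7 and Slc17a8 serve glutamate, Slc18a3 serves acetylcholine and Th serves the catecholamines. The list was drawn up with earlier results of these counts known, among them the fall of EZH2 at Slc32a1. EZH2 changes at these genes are therefore given as a description, without p-values. Which values led to the genes other than Slc32a1 is not recorded. Counts over the 9 genes and their H3K27me3 p-values may therefore be favoured by the choice. ChIP-seq for H3K27me3 and for EZH2 was carried out in mouse embryonic stem (ES) cells of the E14 line, of the strain labelled 12910la. Control cells were wild-type. The ex14D-Ezh2 cells, labelled as an Ezh2 knock-out of exon 14, carried a CRISPR-Cas9 in/del in that exon that shifted the reading frame, so that the alternatively spliced ex14D-EZH2 was the functional form left. Each antibody was used on 2 libraries of each genotype, and each genotype had 1 input library. The labels do not say whether the libraries of a group came from separate clones or cultures, so p-values measure the spread between these libraries. Expression was not measured, and ChIP counts at Ezh2 cannot check the genotype.

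EZH2 is the catalytic subunit of Polycomb repressive complex 2 (PRC2), which methylates lysine 27 of histone H3, and H3K27me3 marks genes that are kept silent. In ES cells the mark and the complex lie mostly over CpG-rich promoters of developmental genes, many of which become active later in a single lineage. Genes that define the transmitter of a neuron are likewise active in some lineages only, since a mature neuron as a rule uses only those of its own transmitter. Whether their promoters are CpG-rich or marked in ES cells differed from gene to gene, as given below.

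The promoters of 5 of the genes are shown because they span the range of the readouts that follow, from strong H3K27me3 signal at Slc18a3 to no H3K27me3 peak called at Slc17a8. Each sequence is the 250 bases before the start site, from RefSeq on GRCm38.p6, read in the direction of transcription, with every CG dinucleotide in capitals. They lie at chr2:158610508-158610757 on the + strand (Slc32a1), chr2:70561879-70562128 on the + strand (Gad1), chr2:22622077-22622326 on the + strand (Gad2), chr14:32464851-32465100 on the - strand (Slc18a3) and chr10:89621250-89621499 on the - strand (Slc17a8).
Slc32a1: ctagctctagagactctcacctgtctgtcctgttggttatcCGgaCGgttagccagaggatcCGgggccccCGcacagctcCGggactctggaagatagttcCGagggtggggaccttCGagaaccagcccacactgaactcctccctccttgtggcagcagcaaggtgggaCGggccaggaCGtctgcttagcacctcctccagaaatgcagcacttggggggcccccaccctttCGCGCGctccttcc
Gad1: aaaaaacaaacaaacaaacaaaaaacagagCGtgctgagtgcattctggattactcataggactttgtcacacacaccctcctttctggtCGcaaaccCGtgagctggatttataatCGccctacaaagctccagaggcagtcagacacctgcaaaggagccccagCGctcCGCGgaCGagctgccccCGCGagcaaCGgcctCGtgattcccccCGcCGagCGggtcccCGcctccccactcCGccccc
Gad2: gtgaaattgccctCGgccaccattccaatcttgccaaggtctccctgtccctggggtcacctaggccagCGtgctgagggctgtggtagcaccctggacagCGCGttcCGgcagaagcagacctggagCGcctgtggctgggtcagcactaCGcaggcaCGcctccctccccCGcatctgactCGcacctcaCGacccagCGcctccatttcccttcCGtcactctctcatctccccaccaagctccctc
Slc18a3: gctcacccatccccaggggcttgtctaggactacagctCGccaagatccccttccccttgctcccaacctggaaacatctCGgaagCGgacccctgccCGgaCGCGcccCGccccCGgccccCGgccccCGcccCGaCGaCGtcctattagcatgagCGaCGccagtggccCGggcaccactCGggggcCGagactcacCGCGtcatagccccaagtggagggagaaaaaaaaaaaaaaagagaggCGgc
Slc17a8: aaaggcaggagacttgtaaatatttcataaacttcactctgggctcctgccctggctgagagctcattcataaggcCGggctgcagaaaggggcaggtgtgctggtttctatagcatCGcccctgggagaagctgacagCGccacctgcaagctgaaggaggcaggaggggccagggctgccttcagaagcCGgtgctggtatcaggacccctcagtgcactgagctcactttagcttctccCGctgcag

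CG, which reads the same on both strands, was counted over 300 bp, from 250 bp before to 50 bp after the start site. All 9 genes were matched among 32851 RefSeq promoters, of which 94.6% held at least 1 CG. The Slc18a3 promoter held 27 and that of Gad1 held 21, the highest numbers among the 9 genes. Slc32a1 followed with 17, Th with 15, Gad2 with 14, Slc17a7 with 13, Slc6a5 with 12 and Slc17a6 with 8. Slc17a8 held 7, which is the median of all promoters. A GC content of at least 50% with an observed-to-expected CG ratio of at least 0.6 was met by Slc18a3 and Gad1, 2 of the 9, against 33.5% of all promoters.

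H3K27me3 was measured as reads in a 1 kb window around the start site, in libraries with 594289 and 937207 such reads in control and 1450937 and 1248018 in ex14D, beside 409371 and 416778 in the inputs. Values are CPM, counts scaled to an equal number of these reads in each library. Enrichment is log2((CPM + 1)/(input CPM + 1)) against the input of the same genotype. Reads on genes were 5.65% to 7.58% of counted reads in the H3K27me3 libraries and 1.90% and 1.92% in the inputs. Before the pseudocount, the ratio to input is thus smaller than over all counted reads. A negative enrichment depends in part on this scaling. At 6 of the 9 promoters the signal was at least 2-fold over input in both control libraries, against 11.3% of all 24500 promoters and 12 of 34 other transmitter genes. The 6 were Slc32a1, Gad1, Gad2, Slc6a5, Slc17a7 and Slc18a3. In ex14D 5 of these genes, all but Slc32a1, met the criterion, against 9.14% of all promoters. The inputs of Slc32a1 held 0 reads in control and 4 in ex14D, so this difference is not read as a loss.

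The highest enrichment with reads in the input was at Slc18a3, which encodes the vesicular acetylcholine transporter. It had 338 and 320.1 CPM in control and 608 and 648 CPM in ex14D, with 12.2 and 24.0 CPM in the inputs. Its enrichment was 4.68 and 4.60 in control, above that of 99.9% of all promoters. Gad2, the glutamate decarboxylase isoform tied to synaptic vesicles, had 362 and 346 CPM in control and 578 and 621 CPM in ex14D. Its control enrichment of 3.70 and 3.64 lay above 99.5% of promoters. Gad1, the isoform that makes most of the GABA of the brain, had 309.6 and 217 CPM in control and 398 and 451 CPM in ex14D. Its enrichment was 2.64 and 2.13 in control and 3.18 and 3.35 in ex14D. At Slc18a3, Gad2 and Gad1 both ex14D libraries lay above both control libraries in CPM, which held for 9.10% of the promoters tested.

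Slc6a5, the glycine transporter of glycinergic nerve endings, had 200.2 and 337 CPM in control and 239 and 185 CPM in ex14D, with overlap of the groups. Its control enrichment of 1.82 and 2.56 overlapped that of Gad1. Slc17a7 (VGLUT1), a vesicular glutamate transporter prominent in the cortex, had 217 and 230.5 CPM in control and 135 and 161 CPM in ex14D. Both ex14D libraries were thus lower before the scaling described next. The share of all promoters at which this held is not given. With library size only, the median log2 fold change of all promoters was -0.47, so a promoter at that median was lower as well. Its enrichment was 1.51 and 1.59 in control and 1.22 and 1.47 in ex14D.

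Th, tyrosine hydroxylase, the rate-limiting enzyme of catecholamine synthesis, was enriched by 0.75 and 0.76 in control and by 0.87 and 0.23 in ex14D. Slc17a6 (VGLUT2), the vesicular glutamate transporter prominent in subcortical neurons, lay near its input, at -0.12 and 0.53 in control and 0.05 and -0.27 in ex14D. Slc17a8 (VGLUT3), found in some neurons that release another transmitter, lay under its input in all 4 libraries, between -1.06 and -0.56. Its reads numbered 11 and 23 in control and 21 and 23 in ex14D. No enrichment was therefore detected at the Slc17a8 promoter at this depth with this scaling. With all counted reads as library size, its mean lay above its input in both genotypes.

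**Figure D1:**
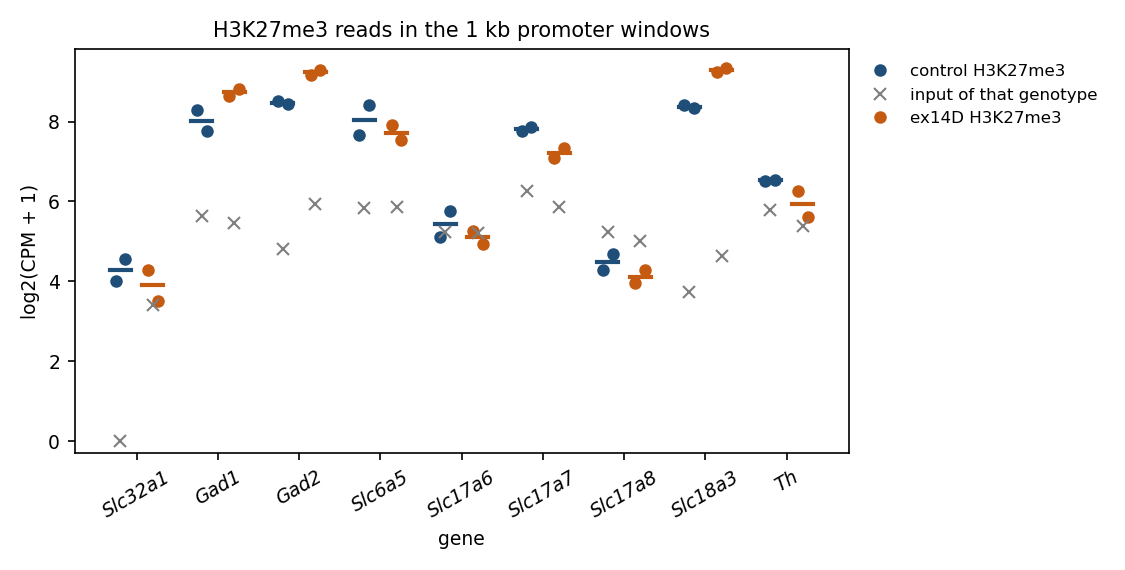
H3K27me3 reads in the promoter window of each gene, as log2(CPM + 1), in each control (blue) and ex14D (orange) library, with short lines at the mean of the 2 libraries and grey crosses at the input of that genotype. Points of both genotypes stand well above the crosses at Gad1, Gad2, Slc6a5, Slc17a7 and Slc18a3 and at or below them at Slc17a8. The control input of Slc32a1 is at 0.

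Slc32a1 encodes the vesicular transporter that loads GABA and glycine into synaptic vesicles, and its window could hold few reads. Its start site lies 35 bp from that of Gm14204, a noncoding RNA gene on the other strand. The windows of the pair share 965 bp and leave 35 bp that belong to Slc32a1 alone. The H3K27me3 reads of Slc32a1 numbered 9 and 21 in control and 27 and 13 in ex14D, beside 0 and 4 reads in the inputs. Over 894 genes with 1 to 100 bp of window of their own the median was 1 read in either input, against 19 and 20 reads for 20237 genes with a whole window. With the control input set at the 3 reads that a count of 0 allows, Slc32a1 was 2.07-fold and 3.06-fold over input in control. These ratios leave out the pseudocount and the counting error of its own 9 and 21 reads, so they are not lower bounds. The 2-fold call of Slc32a1 in control thus rests on an input of 0 reads. In ex14D its enrichment was 0.89 and 0.11, over an input of 4 reads.

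The change between genotypes was tested on TMM-scaled promoter counts with edgeR's quasi-likelihood test, adjusted by Benjamini-Hochberg for 14883 promoters. All 9 genes passed the filter on low counts. Counts are shares of the reads of a library to which no outside standard was added, so the amount of the mark in a cell is not measured by them. A higher count in ex14D is a larger share, which need not be a gain of the mark. By Western blot the authors found less total H3K27me3 in the ex14D-Ezh2 cells than in control cells. Their ChIP-PCR also found less of it at the marked genes they assayed. Of the 9, 3 had higher H3K27me3 counts in ex14D, where 5.85% of all tested promoters did, and 0 had lower counts, where 3.19% did. At an unadjusted p under 0.05 from edgeR these numbers were also 3 and 0, and with DESeq2 they were 3 and 0. The median log2 fold change was 0.05 over the 9 genes and -0.02 over all promoters. TMM places the median of all promoters near 0. When scaled by library size only, that median was -0.47, so a promoter at that median had a lower CPM in ex14D.

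The 3 genes were Slc18a3, Gad2 and Gad1. Because the list was drawn up with earlier results of these counts known, the adjusted p-values that follow may be favoured by that choice. Slc18a3 was 2.61-fold higher in ex14D (log2 fold change 1.38, standard error 0.20, adjusted p = 3.15e-05 by edgeR's quasi-likelihood test). Gad2 was 2.32-fold higher (log2 fold change 1.21, standard error 0.20, adjusted p = 0.000126 by the same edgeR test). Gad1 was 2.22-fold higher (log2 fold change 1.15, standard error 0.21, adjusted p = 0.000604 by the same edgeR test). The call at Gad1 rested on control replicate 2, without which the log2 fold change was 0.86. In that fit, with 1 control library left, the change was also smaller at Gad2 (1.13) and at Slc18a3 (1.29) than with all libraries. When libraries were scaled by their size only, without TMM, the log2 fold changes were 0.93, 0.76 and 0.70 at Slc18a3, Gad2 and Gad1, each past the threshold.

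Relative to the input of each genotype, the direction at Gad2 depended on the scaling and the pseudocount, and at Slc18a3 the size of the difference depended on them. With CPM over reads on genes, the enrichment of Gad1 was higher in both ex14D libraries than in both control libraries. That of Slc18a3 was 4.61 and 4.70 in ex14D, beside 4.68 and 4.60 in control, and the groups overlapped. That of Gad2 was 3.25 and 3.35 in ex14D, below both control values. With all counted reads as library size, mean enrichment was higher in ex14D at all of Gad1 (3.06 ± 0.36 in control and 4.11 ± 0.13 in ex14D, SD, n = 2), Gad2 (3.83 ± 0.0462 and 4.36 ± 0.0738) and Slc18a3 (4.03 ± 0.0560 and 4.99 ± 0.0654). On that scale the inputs lie near or below the pseudocount. Without a pseudocount, on the same scale, it was 4.02 and 5.21 at Gad1, 5.33 and 5.23 at Gad2 and 6.37 and 6.62 at Slc18a3, so that Gad2 was again lower in ex14D. The input of Gad2 had 11 reads in control and 25 in ex14D, a CPM ratio of 2.23 (exact 95% interval 1.06 to 5.03, counting error only), and that of Slc18a3 had 5 and 10, a ratio of 1.96 (0.612 to 7.32). Since each genotype had 1 input library, enrichment was not tested between genotypes, and the part of the inputs in these rises was not tested.

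At the other 6 genes the change did not pass the threshold. The log2 fold change was 0.05 at Slc32a1 (standard error 0.40), 0.09 at Slc6a5 (0.22), 0.04 at Slc17a6 (0.34), 0.02 at Slc17a8 (0.37), -0.15 at Slc17a7 (0.22) and -0.12 at Th (0.28). The standard errors were widest at Slc32a1, Slc17a6 and Slc17a8, where the low number of reads limits what could be detected. Slc18a3, Gad2 and Slc32a1 belonged to the 401 promoters that reached 8-fold over input in each control library, of which 283 were called higher in ex14D and whose median log2 fold change was 1.00. Slc32a1 was placed there over an input of 0 reads, and its own change was 0.05. Gad1 belonged to the 958 promoters between 4- and 8-fold, with a median of 0.46, and Slc6a5 and Slc17a7 to the 1299 between 2- and 4-fold, with 0.07. These levels come from the control libraries of the same comparison, so the order of the medians is a description.

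Slc18a3 lies within the first intron of Chat, the gene of the enzyme that makes acetylcholine, and the 2 start sites are 1059 bp apart, so that their windows do not overlap. Chat had 84.1 and 109.9 CPM of H3K27me3 in control and 80.6 and 72.9 CPM in ex14D. Its enrichment was 1.38 and 1.76 in control and 1.85 and 1.71 in ex14D, lower than at Slc18a3 in every library. The change at Chat did not pass the threshold (log2 fold change 0.10, standard error 0.26, adjusted p = 0.885 by edgeR's quasi-likelihood test). The difference between the changes at Slc18a3 and Chat was not tested.

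H3K27me3 peaks, called with MACS2 in each library, lay over the 1 kb window in both control libraries at 8 of the 9 genes, against 18.2% of the 23516 promoters placed on the genome. In both ex14D libraries they did so at 7 of the 9, against 16.7%. Slc17a8 had no peak in any library. Slc17a6 was the gene that differed, and its peak began 420 and 561 bp after the start site in ex14D, either side of the edge of the window. The peaks over Slc32a1, Gad1, Gad2, Slc6a5 and Slc18a3 were 8968 to 17476 bp wide, against library medians of 1601 to 2173 bp. With a q value under 0.01 required, for which no share of all promoters is given, 5 genes kept a peak in both control libraries and 7 in both ex14D libraries. Slc6a5 and Slc17a7 missed it in control replicate 2 and Slc18a3 in control replicate 1.

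Unlike the counts, the peaks cover the whole of Slc32a1. Its peak had a fold enrichment of 8.41 and 9.20 in control and of 26.2 and 21.3 in ex14D, so the groups did not overlap. Divided by the median of all peaks of the library, these values were 2.55 and 3.02 in control and 5.49 and 3.88 in ex14D. By rank, the Slc32a1 peak lay above 88.3% and 93.7% of the peaks of its library in control. In ex14D it lay above 97.0% and 90.2%, so the ranks of the groups overlapped. The share of all peaks whose fold enrichment separated the groups is not given. The control that MACS2 was given for each library is not given in the sources used here, so the denominators may differ between the genotypes. At Gad2 the fold enrichment was 3.90 and 3.25 in control and 10.2 and 7.73 in ex14D. At Gad1 it was 12.2 and 2.94 in control against 24.4 and 8.37 in ex14D, with overlap of the groups. At Slc18a3 it was 1.95 and 1.99 in control and 3.67 and 2.03 in ex14D, among the lower values of the 8 genes although its promoter window was the most enriched. With 2 libraries against 2 an exact permutation test cannot reach 0.05, so these values carry no test.

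EZH2 was measured as reads over whole genes, with 13628137 to 18403892 reads on genes in a library, and levels are given per kb of gene that no other gene covers. In control the level was highest at Slc32a1, with 16.1 and 15.3 CPM per kb. Gad1 followed with 3.51 and 3.49 CPM per kb, Slc17a7 with 2.59 and 2.44, and Gad2 with 2.50 and 2.26, so that Slc17a7 and Gad2 overlapped. Slc6a5 had 1.82 and 1.69 CPM per kb, Th had 1.31 and 1.50, and Slc17a6 had 0.880 and 0.858. In ex14D Slc32a1 was still highest, at 4.53 and 3.07 CPM per kb, and Slc6a5 at 1.13 and 1.03 had come to lie below Th at 1.31 and 1.41. These values average over the whole gene, 49195 bp at Slc6a5 and 7217 bp at Th, and do not rank the promoters. At its curated start site Slc6a5 kept an EZH2 domain in both ex14D libraries, whereas Th had none in any library.

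Of the 7 genes with EZH2 counts, 5 were past the threshold of edgeR's quasi-likelihood test, all lower, where 7.88% of the genes tested were lower and 0.0522% higher. The list was drawn up with falls of this comparison known, so the count is a description and nothing is read from it. The 5 were Slc32a1, Slc17a7, Gad1, Slc6a5 and Gad2, and the median log2 fold change of the 7 was -0.74, against 0.02 over all genes. Without either of the control libraries 0 genes of the whole table passed the threshold of edgeR, and 1372 or 1300 were lower at an unadjusted p under 0.05. Over the libraries left out in turn the log2 fold change of Slc32a1 lay between -2.42 and -1.83.

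Slc32a1 had the widest difference, with 80.5 and 76.3 CPM over the gene in control and 22.6 and 15.3 CPM in ex14D. Its log2 fold change of -2.10 (standard error 0.15) made EZH2 4.29-fold higher in control, and 1 of the 13401 genes tested, Mir193b, had a larger fall. Slc17a7 had 31.5 and 29.7 CPM in control and 19.5 and 16.1 CPM in ex14D, a log2 fold change of -0.83 (standard error 0.10). Gad1 had 136 and 135 CPM in control and 89.9 and 74.9 CPM in ex14D, a log2 fold change of -0.76 (standard error 0.08). At Slc32a1, Slc17a7 and Gad1 both ex14D libraries lay below both control libraries, as they did at 18.0% of all genes tested.

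Slc6a5 had 89.3 and 83.2 CPM in control and 55.8 and 50.8 CPM in ex14D, a log2 fold change of -0.74 (standard error 0.07). Gad2 had 179 and 162 CPM in control and 144 and 117 CPM in ex14D, a log2 fold change of -0.43 (standard error 0.10). Slc17a6 had 43.4 and 42.3 CPM in control and 37.1 and 41.0 CPM in ex14D, a log2 fold change of -0.17 (standard error 0.07), and its groups did not overlap either. Th had 9.45 and 10.8 CPM in control and 9.47 and 10.2 CPM in ex14D, and its groups overlapped, with a log2 fold change of -0.09 (standard error 0.12).

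**Figure D2:**
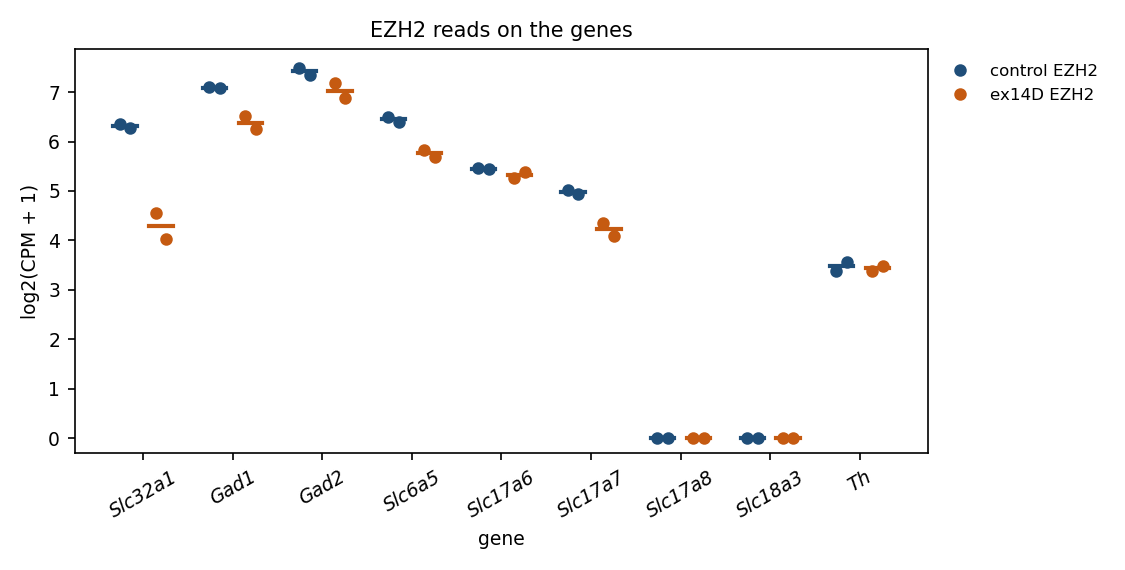
EZH2 reads on each gene, as log2(CPM + 1), in each control (blue) and ex14D (orange) library, with short lines at the mean of the 2 libraries. The ex14D points of Slc32a1 are the farthest below control, those of Th overlap control, and Slc17a8 and Slc18a3 are listed at 0 in all 4 libraries.

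Slc17a8 and Slc18a3 are listed at 0 EZH2 reads in every library and have no EZH2 change. A count of 0 allows 0.163 to 0.220 CPM by counting error alone. Slc18a3 has no base outside Chat, and of 1298 genes under 5 kb with no base of their own 97.0% are listed at 0 in all 4 EZH2 libraries, against 42.4% of 4758 such genes that share no base. Slc17a8 lies in a stretch of 126 Mb of chromosome 10 in which all 1098 listed genes are at 0, while 157 to 334 EZH2 domains were called in that stretch in each library. The zeros therefore say nothing of the EZH2 level at these 2 genes.

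**Figure D3:**
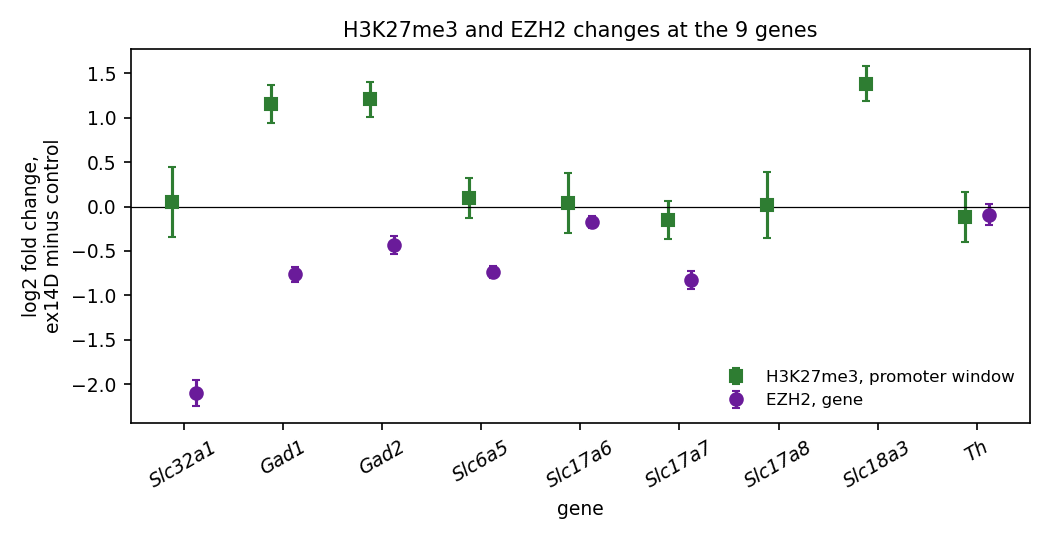
Log2 fold change of H3K27me3 in the promoter window (green squares) and of EZH2 over the gene (purple circles) at each gene, ex14D minus control, with bars of 1 standard error. H3K27me3 lies above 1 at Gad1, Gad2 and Slc18a3 and near 0 elsewhere, whereas EZH2 lies below 0 at all 7 genes with counts, lowest at Slc32a1 with -2.10.

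Side by side, Gad1 had an H3K27me3 change of 1.15 and an EZH2 change of -0.76 on the log2 scale, and Gad2 had 1.21 and -0.43. Slc32a1 had 0.05 and -2.10, where the first value rests on a window of 35 bp. Slc6a5 and Slc17a7 had EZH2 changes of -0.74 and -0.83 with H3K27me3 changes of 0.09 and -0.15. The readouts come from different libraries and different spans of each gene, and no test was made between them.

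EZH2 domains, called with hiddenDomains in each library in steps of 1 kb, lay over the promoter window in both control libraries at 6 of the 9 genes, against 16.9% of the 23516 promoters. In both ex14D libraries they did so at 5 of the 9, against 10.5%. Slc32a1, Gad1, Gad2, Slc6a5 and Slc18a3 had one in all 4 libraries, and Th and Slc17a8 in 0. At Slc18a3, where the counts give no value, the domain was 8 and 10 kb wide in control and 6 and 7 kb wide in ex14D. At Slc6a5 it was 10 and 11 kb wide in control and 8 kb wide in both ex14D libraries. At Gad2 it was 10 kb wide in 3 libraries and 9 kb wide in ex14D replicate 2.

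Slc17a7 was the gene whose promoter domain was called in control alone. In control a domain of 6 or 7 kb lay over its promoter and another of 7 or 9 kb over its 3′ end, which together covered 42.7% and 67.3% of the gene. In ex14D the promoter had none, and 1 or 2 kb were left at the 3′ end, covering 1.14% of the gene in both libraries. The H3K27me3 peaks of Slc17a7 had the same 2 pieces in all 4 libraries, and covered 68.0% and 87.4% of the gene in control and 58.4% and 59.5% in ex14D. Slc17a6 had a domain of 3 or 4 kb inside the gene in control and none in ex14D, while H3K27me3 peaks at that place were called in all 4 libraries.

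The start site matters for Slc32a1 and Slc6a5. At Slc32a1 RefSeq lists a predicted transcript that begins 3498 bp before the curated one, and a window at that site meets no EZH2 domain in any library. At Slc6a5 a predicted transcript begins 3315 bp before the curated one. With predicted transcripts included, 5 genes had a domain in both control libraries, among them Slc6a5. In both ex14D libraries 3 had one, Gad1, Gad2 and Slc18a3, so Slc6a5 was no longer among them. The share of all promoters at these sites is not given. With the curated site, at chr2:158610758, the domain covered the whole of Slc32a1 in all 4 libraries, at a width of 8 and 9 kb in control and 7 and 8 kb in ex14D. The domain thus remained called at Slc32a1 although its EZH2 counts differed by 4.29-fold.

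**Figure D4:**
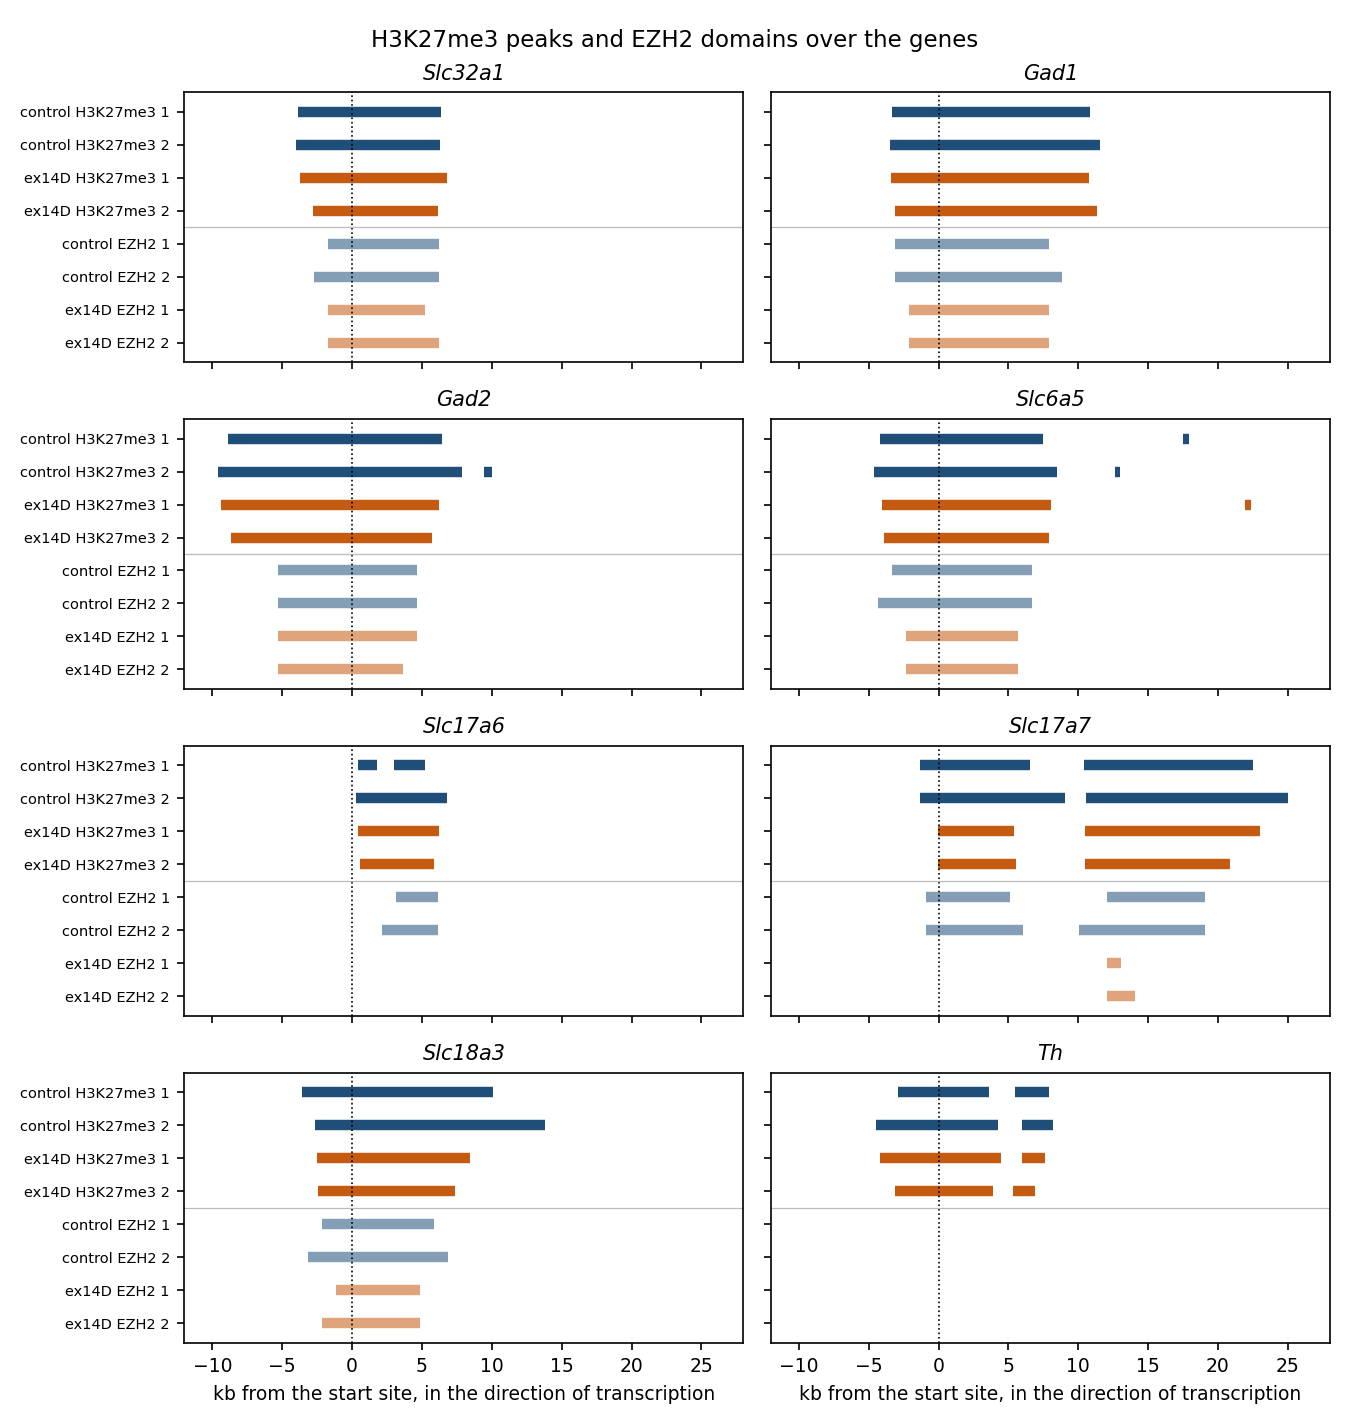
H3K27me3 peaks (full colour, upper 4 rows) and EZH2 domains (pale, lower 4 rows) of each control (blue) and ex14D (orange) library, from 12 kb before to 28 kb after the start site (dotted line) of 8 genes. The EZH2 domains of Slc17a7 and Slc17a6 are short or missing in ex14D, Th has peaks but no domain, and 1 peak of Gad2 lies beyond the span shown.

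Over the 7 genes with counts, the order of the EZH2 changes was that of the part of the gene under EZH2 domains of both control libraries. This part was 100% at Slc32a1, 42.7% at Slc17a7, 19.7% at Gad1, 13.6% at Slc6a5, 6.53% at Gad2, 6.09% at Slc17a6 and 0% at Th. These 7 genes share their libraries, and falls of this comparison were known when the list was drawn up. The order is therefore a description, and no p is given. Over all genes tested, the median log2 fold change was 0.04 for 10309 genes without such a domain, -0.08 for 1659 with up to 10% covered, -0.61 for 578 with 10% to 50% and -1.04 for 392 with more. Slc32a1, a gene of 4990 bp, lay below the lower quartile of its class at -1.25. The domains come from the control libraries of the same comparison, and reads outside a domain count toward a long gene.

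**Figure D5:**
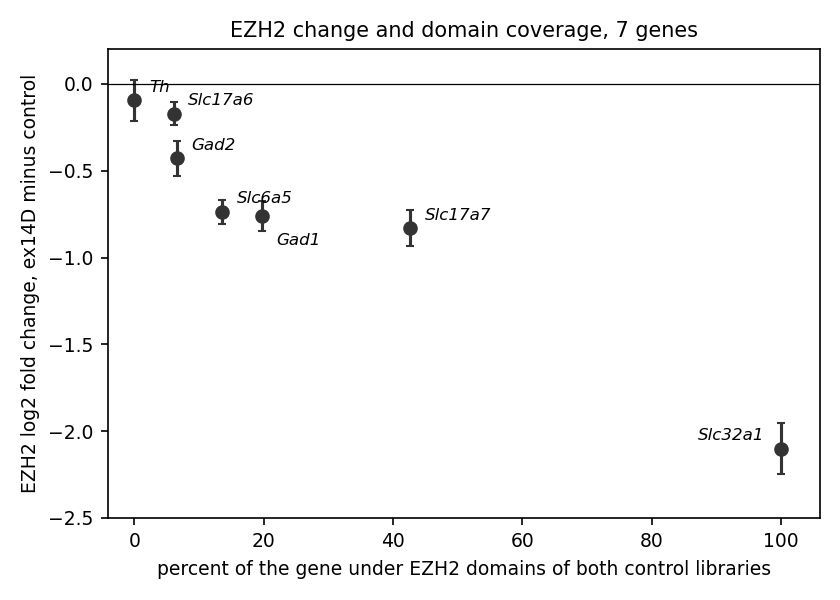
EZH2 log2 fold change (ex14D minus control, bars of 1 standard error) against the percent of the gene under EZH2 domains of both control libraries, for the 7 genes with EZH2 counts. The change goes from -0.09 at Th, with none of the gene covered, to -2.10 at Slc32a1, with all of it covered.

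The genes most like Slc32a1 were sought by the root mean square difference of centred log2 CPM over the 4 H3K27me3 and 4 EZH2 libraries, among 8533 genes. They were Lor at 0.314, Gm996 at 0.318 and Gsc2 at 0.326, against a median of 1.12 over all genes compared. Their EZH2 log2 fold changes were -1.58, -1.88 and -1.62, and those of H3K27me3 were 0.21, 0.50 and -0.09. Values near those of Slc32a1 follow from the search, which used the same libraries. The H3K27me3 values of Slc32a1 in this measure rest on 9 to 27 reads.

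The other enzymes and transporters of the same transmitters were taken from lists for GABA and glycine, glutamate, acetylcholine, monoamines and ATP, with 34 genes in all. In H3K27me3, 28 of them were tested, of which 0 were higher and 1 was lower in ex14D by edgeR, where 3.19% of all promoters were lower, so the share is near that background. Of the 34 genes, 10 were at least 2-fold over input in both ex14D libraries. The lower gene was Tph2, the neuronal tryptophan hydroxylase, with 42.1 and 29.9 CPM in control and 12.4 and 8.81 CPM in ex14D (log2 fold change -1.26, standard error 0.37, adjusted p = 0.0318 by edgeR's quasi-likelihood test). Tph2 was below its input in all 4 libraries with CPM over reads on genes, a position that depends in part on this scaling. In EZH2, 19 were tested and 15 are listed at 0. Of the 19, 2 were lower, where 7.88% of all genes were, again a share near the background. Chat and Ache, which make and break down acetylcholine, were the lower genes, with log2 fold changes of -0.39 (standard error 0.07) and -0.91 (0.10), and 0 were higher.

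The median log2 fold change was 0.05 over the 28 of these genes tested for H3K27me3 and -0.02 over the 19 tested for EZH2. The promoters of 6 genes that mark ES cells were Pou5f1, Sox2, Nanog, Klf4, Esrrb and Zfp42. With CPM over reads on genes their H3K27me3 enrichment lay between -4.09 and 1.81, with Klf4 highest. Of the 6, 3 were tested for H3K27me3 and 2 for EZH2, with 0 higher and 1 lower in each, and the lower gene was Klf4. Over all tested, 3.19% of promoters were lower in H3K27me3 and 7.88% of genes in EZH2, and Klf4 alone is too few to compare with these shares. Klf4, which encodes a pluripotency factor, had 156 and 108 CPM of H3K27me3 in control and 53.8 and 50.5 CPM in ex14D (log2 fold change -0.88, standard error 0.28, adjusted p = 0.0439 by edgeR's quasi-likelihood test). Its EZH2 log2 fold change was -1.45 (standard error 0.16), and 4 of the 6 are listed at 0 in EZH2. Chromatin counts do not measure the expression of these markers.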

How the data were processed

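Groups were taken from the labels, by antibody and genotype. The authors used Bowtie to align reads to mm10 and htseq-count to count them, per the methods in 1 kb windows centred on the 5′ most TSS. The authors deposited raw counts of reads for each gene. The EZH2 counts, unlike those of H3K27me3 and input, follow gene length and were therefore treated as counts over genes. Rows that name no gene held 92.4% to 98.1% of the counted reads for H3K27me3 and input and 55.7% to 56.1% for EZH2, and were left out of library sizes. The authors called MACS2 broad peaks and deposited their fold enrichment (a ratio) and −log10 q for each library. The deposited EZH2 domains are positions from hiddenDomains. The H3K27me3 domains run past the ends of mm10 chromosomes and were not used.

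For each antibody, edgeR 4.0.16 in R 4.3.3 compared the genotypes by the quasi-likelihood test (filterByExpr, TMM, Benjamini-Hochberg adjusted p under 0.05). Approximate standard errors were taken as the log2 fold change over the root of F. Enrichment used a pseudocount of 1 CPM, and a peak or domain met a window with an overlap of at least 1 bp. Start sites, gene spans and promoters came from curated RefSeq transcripts on GRCm38.p6. Libraries of 1 group differed beyond sampling noise (chi-square over degrees of freedom 1.49 to 4.01). The genes and lists were chosen with earlier results of these data known. Named genes were the 9 genes, Chat, the list genes past the threshold for H3K27me3 (at most 2 falls and 2 rises a list) and the 3 genes most like Slc32a1. Gm14204, Mir193b, Ache and the change at Klf4 were added after their values were seen. The edgeR step was tested on simulated data. Alternatives were the scaling, DESeq2 1.42.0, the filter, the replicate block, the pseudocount, peak and domain criteria and each library left out in turn. Tables and sequences were handled with pandas 2.3.3, pysam 0.24.0 and scipy 1.17.1 under Python 3.11.15.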

Additional observations from a re-analysis of the deposited data

How the results depend on the processing

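Use of predicted start sites, of the crossed pairing and of enrichment without a pseudocount was decided on after seeing the data. The cause was not tested except where one is stated. H3K27me3 counts, as shares of the reads of a library, were higher in ex14D at Gad1, Gad2 and Slc18a3 in every alternative fit. They were past the threshold in each fit that kept all libraries. Without control replicate 2 the log2 fold change of Gad1 was 0.86. Enrichment over input was not higher in ex14D under every scaling and pseudocount at Gad2. At Slc18a3 the groups overlapped with CPM over reads on genes, as given above. Over all promoters, library size alone gave 2176 lower and 398 higher, and DESeq2 gave 264 lower. With 1 library left out, 73 to 610 promoters were lower and 255 to 797 higher, and 2 to 3 of the 9 genes were higher. Fewer libraries remain in those fits, and the lone library is assumed to vary like the other group.

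The other H3K27me3 changes, none past the threshold, took the opposite sign as follows. With library size alone they were -0.40 at Slc32a1, -0.36 at Slc6a5, -0.41 at Slc17a6 and -0.43 at Slc17a8, and with all counted reads as library size -0.0839, -0.0398, -0.0905 and -0.122. These scalings move all promoters, whose median was -0.47 and -0.15. With DESeq2 Slc32a1, Slc17a6 and Slc17a8 were at -0.0252, -0.0397 and -0.0479, and without a filter at -0.0193, -0.0286 and -0.0487. With 1 library left out the ranges were -0.43 to 0.40 at Slc32a1, -0.24 to 0.48 at Slc6a5, -0.25 to 0.39 at Slc17a6, -0.16 to 0.22 at Slc17a8 and -0.47 to 0.17 at Th. The EZH2 change at Th lay between -0.180 and 0.0165. H3K27me3 enrichment with all counted reads was 0.41 and 0.45 at Slc17a8 and 1.01 at Slc17a6 in ex14D, since the inputs have more reads on no gene, and without a pseudocount as well 0.83 and 0.98 at Slc17a8 and 1.79 at Slc17a6 in ex14D. At Slc17a6, with 1 library left out, it lay between -0.12 and 0.53 in control and between -0.27 and 0.0471 in ex14D.

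EZH2 genes past the threshold numbered 0 to 1561 lower and 0 to 81 higher with 1 library left out, and 0 to 5 of the 9 genes were lower. Those higher over all genes numbered 47 with library size alone, 33 with all counted reads, 2 with DESeq2 size factors, 0 with DESeq2 (7 before adjustment of p) and 3 with the replicate block. With the q value under 0.01, 5 of the 9 genes had an H3K27me3 peak in control, and with predicted start sites 3 had an EZH2 domain in ex14D. The share of all promoters is not given for either criterion.

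In a fit with a replicate block by number, 406 promoters were lower and 755 higher in H3K27me3, 852 genes lower in EZH2, and the same genes of the 9 passed the threshold for each antibody. The deviations of same-numbered libraries had a correlation of -0.10 for H3K27me3 and -0.03 for EZH2, so the libraries share only a number. With the pairing crossed, 795 promoters were lower and 1185 higher in H3K27me3. Counting depth limits the H3K27me3 values of Slc32a1, Slc17a6 and Slc17a8 most.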
